A study of Mus musculus with 24 samples.

Results

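The growth hormone, STAT5 and IGF axis of the liver was followed through 10 genes: the receptor gene Ghr, the kinase gene Jak2, the transcription factor genes Stat5a and Stat5b, the feedback inhibitor genes Socs2, Cish and Socs3, and the IGF genes Igf1, Igfals and Igfbp2. They were taken by symbol, as every probe set whose array annotation names one of these genes alone, out of 18194 genes with such a probe set. The 10 genes held 25 of the 45101 probe sets on the array. The filter on low values kept 22 of the 25 and all 10 genes, and the 3 probe sets below it all belonged to Socs2.

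Growth hormone binds its receptor on the hepatocyte, the receptor-bound kinase JAK2 phosphorylates STAT5A and STAT5B, and these move to the nucleus and switch on target genes. Among the targets are Igf1, which encodes the circulating growth factor, and Igfals, which encodes the acid-labile subunit that holds IGF1 in a long-lived complex in blood. Socs2 and Cish are also STAT5 targets, and their products damp the same receptor. Thyroid hormone acts on the axis in the pituitary, where it supports growth hormone synthesis, and in the liver itself.

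Livers came from male mice made hypothyroid for 3 weeks and injected with T3, the active thyroid hormone, or with PBS, and were taken 6 h later. Total RNA, 200 ng, was hybridised to a microarray, with 3 arrays in each of 8 groups. Wild-type mice (WT), mice without the thyroid hormone receptor TRβ (KO) and mice with the receptor changes E125G and G126S in its DNA-binding domain (GS) had a C57BL/6J background and were 8 to 9 weeks old. They received an iodine-poor diet and 0.02% methimazole, 0.5% perchlorate and 0.3% saccharin in the water, and T3 at 20 µg per 100 g body weight into the peritoneum. Mice with the receptor change Y147F had a C57BL/6JCrl background, were 10 to 11 weeks old, received 0.05% methimazole and 1% perchlorate, and T3 at 200 ng per g, which is the same dose. The Y147F arrays were submitted later and have no wild type of their own, so genotype, age, substrain, drug dose and submission cannot be told apart where they are set against WT. All animals, the PBS controls included, were hypothyroid, and the labels name no promoter or Cre that would limit the receptor changes to the liver, so effects that begin in the liver and outside it cannot be told apart.

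Array medians lay between 5.88 and 6.00 on the log2 scale. The single Thrb probe set averaged 6.99 in KO with PBS and 6.80 in WT with PBS, so it does not check the knockout label. On the third principal component, with 6.93% of the variance, Y147F T3 replicate 3 (0.49) and Y147F PBS replicate 3 (0.46) lay apart from the other 22 arrays (-0.31 to 0.27). The called Y147F results for the main probe set of each member are therefore also given without these arrays. Those for other probe sets and other genes are given with all arrays only. Albumin (Alb) lay between 15.12 and 15.21 in every array, close to the highest value of the first-submitted arrays (15.2), so it is a weak check. The 9 hepatocyte markers tested, Alb among them, averaged 13.54 to 13.71 with T3 and 13.54 to 13.72 with PBS in WT. In GS they averaged 13.45 to 13.59 and 13.62 to 13.67, without overlap, and the treatments overlapped in KO and Y147F. Hnf4a, on the same list, was called lower with T3 in WT and in Y147F (below). In WT no marker of Kupffer, sinusoidal endothelial, stellate or biliary cells passed the test for T3, where 10.6% of all 14162 genes tested did. Of the 42 such markers tested, 9 had an unadjusted limma p under 0.05, as did 3279 of the 14162 genes. As a list, however, the 12 sinusoidal endothelial markers averaged 8.96 to 9.04 with T3 and 9.20 to 9.26 with PBS in WT, without overlap. The same list averaged 8.95 to 9.01 and 9.10 to 9.19 in GS, also without overlap, and overlapped in KO (8.71 to 9.18 and 9.09 to 9.15) and just touched in Y147F (9.03 to 9.23 and 9.23 to 9.35). The 5 biliary markers averaged 7.18 to 7.24 with T3 and 7.32 to 7.57 with PBS in WT. The part of these shifts in the results below was not tested. Fewer cells of a type and less RNA per cell cannot be told apart in whole liver.

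The sequences below are start-site regions of Stat5a, Stat5b, Cish and Igfals, picked from the members that changed with T3, from RefSeq on GRCm38.p6. RefSeq windows of 300 bases, from 250 before to 50 after a start, were matched by symbol for 9 of the 10 genes, all but Socs2, and these hold 15 windows. Stat5b lies on the reverse strand of chromosome 11 with Stat5a next to it on the forward strand, and no annotated gene lies between them. The capitals mark AGGTCA, the hexamer that nuclear receptors bind, in the region of the other Stat5a start, and its reverse complement TGACCT in the first Stat5a region and in Stat5b. Stat5a is chr11:100860334-100860483, its other start chr11:100859536-100859655, and Stat5b chr11:100822563-100822711.
Stat5a: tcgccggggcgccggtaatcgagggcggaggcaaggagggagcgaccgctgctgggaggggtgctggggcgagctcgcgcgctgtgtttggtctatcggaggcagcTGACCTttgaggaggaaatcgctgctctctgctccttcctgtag
Stat5a, other start: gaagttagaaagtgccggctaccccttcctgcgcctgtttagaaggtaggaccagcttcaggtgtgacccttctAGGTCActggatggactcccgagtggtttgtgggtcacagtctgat
Stat5b: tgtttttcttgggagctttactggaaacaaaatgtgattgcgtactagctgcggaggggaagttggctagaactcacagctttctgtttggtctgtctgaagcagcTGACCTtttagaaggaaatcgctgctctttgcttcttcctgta
The first Stat5a region and the Stat5b region share a stretch of 65 bases without gaps, of which 58 (89.2%) are the same. It begins at base -66 of Stat5a and base -57 of Stat5b, counted from the start site at 0, and TGACCT lies within it in both, at -44 and -35.

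The next sequences belong to STAT5 targets. Capitals mark TTCNNNGAA, the core of a STAT5 site, and in Igfals also TGACCT and AGGTCA. Cish is chr9:107296559-107296678 and Igfals chr17:24878117-24878236, both on the forward strand.
Cish: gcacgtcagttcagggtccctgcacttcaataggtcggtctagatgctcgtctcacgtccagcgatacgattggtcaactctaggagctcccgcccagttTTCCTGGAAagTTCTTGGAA
Igfals: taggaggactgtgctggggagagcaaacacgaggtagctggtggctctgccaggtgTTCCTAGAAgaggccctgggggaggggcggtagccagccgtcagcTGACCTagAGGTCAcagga
Of all 32851 RefSeq windows of this length, 8.3% hold TTCNNNGAA, and 4 of the 15 member windows do, from 3 members (Cish, Socs3 and Igfals). Igf1, a STAT5 target that also fell with T3, has no TTCNNNGAA in its windows and is not shown. On either strand 16.3% of all windows hold AGGTCA, and 6 of the 15 member windows do, from 4 members (Stat5a, Stat5b, Igf1 and Igfals). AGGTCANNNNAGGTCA, the direct repeat that TRβ binds with its partner RXR, stands in 0.0152% of windows and in none of the 15. TGACCTNNAGGTCA, which contains AGGTCA on both strands and was searched for after the Igfals window was seen, stands in 5 windows (0.0152%), Igfals among them. These matches describe letters in a window and no binding was measured.

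T3 changed the transcripts of the axis in opposite directions in WT liver. The transcription factor genes Stat5a and Stat5b rose 4.06-fold and 2.73-fold, while Socs2 fell 13.1-fold, Cish 2.45-fold, Igfals 1.92-fold and Igf1 1.53-fold. Of the 10 genes 2 rose and 4 fell. Of all 14162 genes tested, 5.73% rose, 4.9% fell and 10.6% were called in either direction. The median log2 difference of the 10 was -0.32, and that of all genes tested -0.03. T3 and PBS arrays did not overlap for 9 of the 10, where 29.5% of all genes tested showed no overlap. Calls are from limma with Benjamini-Hochberg adjustment over all genes, at an adjusted p under 0.05, and every value below is a log2 intensity, or a log2 difference ± SE, with n = 3 arrays in each group.

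**Figure D1:**
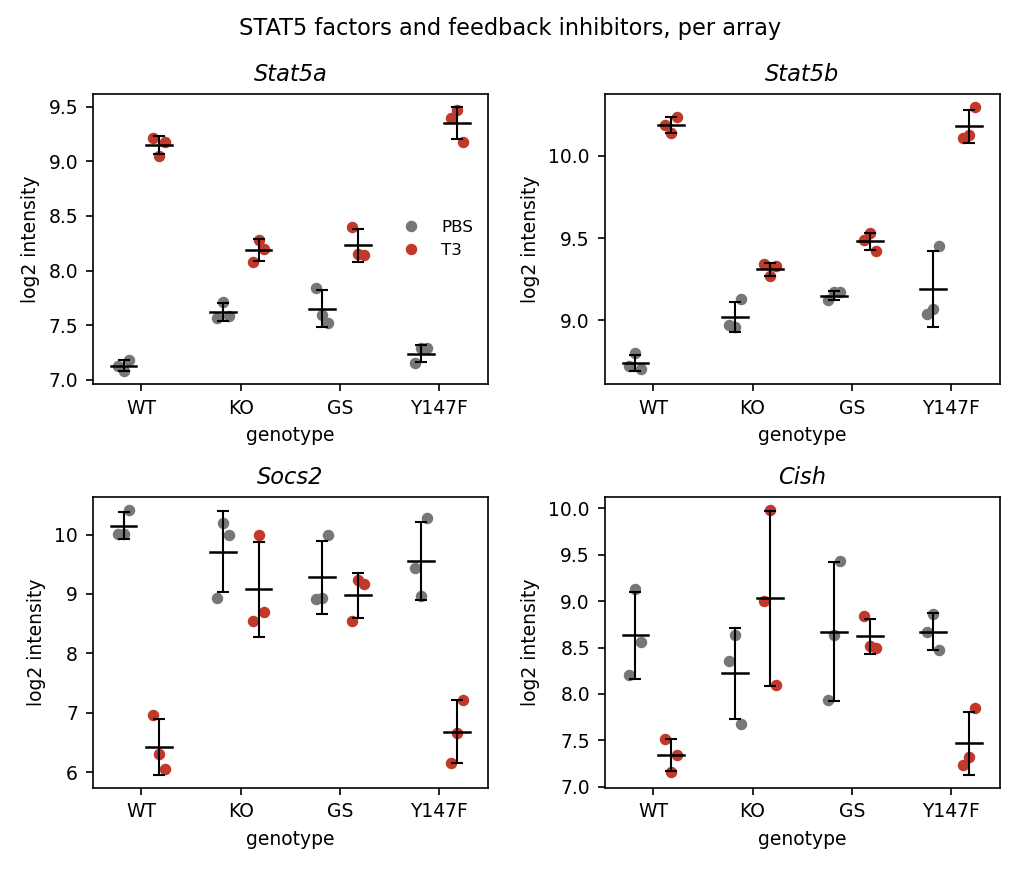
Log2 intensity of Stat5a, Stat5b, Socs2 and Cish on each array (dots), by genotype and treatment, with the mean and SD of 3 arrays (bars). With T3, Stat5a reached 9.05 to 9.47 in WT and Y147F and 8.08 to 8.40 in KO and GS, and Socs2 lay at 6.05 to 7.21 in WT and Y147F and at 8.54 to 10.00 in KO and GS.

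Stat5a, which encodes one of the paired STAT5 factors, read 7.13, 7.08 and 7.18 in WT with PBS and 9.21, 9.05 and 9.18 with T3. The groups lay far apart (2.02 ± 0.09, adjusted p = 6.7e-12 by limma). In Y147F it read 7.15, 7.29 and 7.29 with PBS and 9.40, 9.47 and 9.18 with T3, a rise of 2.11 ± 0.09 (limma adjusted p = 3.78e-12), or 2.13 without Y147F PBS replicate 3 and 2.19 without Y147F T3 replicate 3. The group means of these 2 genotypes lay close together, 7.13 and 7.24 with PBS and 9.15 and 9.35 with T3.

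In KO liver Stat5a read 7.57, 7.71 and 7.58 with PBS and 8.08, 8.28 and 8.20 with T3, a rise of 0.57 ± 0.09 (limma adjusted p = 0.00758). GS liver gave 7.84, 7.59 and 7.52 with PBS and 8.40, 8.15 and 8.14 with T3, a rise of 0.58 ± 0.09 (limma adjusted p = 0.00673). T3 and PBS arrays did not overlap in either mutant, and their T3 arrays stayed below every T3 array of WT. The log2 response was 28.3% of that in WT in KO and 28.6% in GS. Stat5a was the sole member called in each mutant, where 0.177% of all genes were called for T3 in KO and 0.148% in GS. The GS call was lost without GS T3 replicate 1 (0.49, adjusted p = 0.0503), GS PBS replicate 2 (0.55, 0.0709) or GS PBS replicate 3 (0.51, 0.0718). When the fit was limited to the 6 arrays of 1 genotype, neither the KO (adjusted p = 0.137) nor the GS response (0.266) was called.

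Stat5b, the paralog that carries most of the growth hormone signal in male liver, read 8.72, 8.80 and 8.70 in WT with PBS and 10.19, 10.14 and 10.24 with T3. The rise was 1.45 ± 0.08 (limma adjusted p = 1.93e-10), with no overlap. In Y147F it read 9.04, 9.07 and 9.45 with PBS and 10.11, 10.13 and 10.30 with T3, a rise of 0.99 ± 0.08 (limma adjusted p = 6.86e-08). It was 1.12 without Y147F PBS replicate 3 and 0.93 without Y147F T3 replicate 3, called in both cases. Y147F and WT T3 arrays overlapped, while the Y147F PBS arrays all lay above those of WT.

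With PBS, Stat5b read 8.97, 8.96 and 9.13 in KO and 9.12, 9.17 and 9.17 in GS. With T3 it read 9.34, 9.27 and 9.33 in KO and 9.49, 9.53 and 9.42 in GS. The arrays of the 2 treatments did not overlap in either mutant, but the differences, 0.29 ± 0.08 in KO (limma adjusted p = 0.204) and 0.32 ± 0.08 in GS (0.26), were not called. With the first-submitted arrays alone the GS difference was called (adjusted p = 0.0407).

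The 2 genes are close paralogs, and each is read by 2 probe sets. For Stat5a the second probe set, 1450259_a_at, gave 2.20 in WT, 2.41 in Y147F, 0.74 in GS (limma adjusted p = 0.204) and 0.50 in KO (0.341). In WT with PBS it read only 5.10 to 5.55, close to the level above which genes were tested (5.32 to 5.45, the 40th percentile of an array). For Stat5b the second, 1422102_a_at, gave 0.69 in WT, 0.73 in Y147F, 0.14 in GS and -0.01 in KO. The 2 Stat5b probe sets thus differed in the size of the WT rise, 1.45 against 0.69, and agreed in its direction. Whether probes of one paralog also bind the transcript of the other was not tested.

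The responses of both genes differed between genotypes in a direct test of the difference. Relative to WT, the Stat5a response was lower by -1.45 ± 0.13 in KO (limma adjusted p = 1.22e-06) and by -1.44 ± 0.13 in GS (1.32e-06). Stat5b differed by -1.16 ± 0.12 in KO (limma adjusted p = 5.85e-06) and by -1.12 ± 0.12 in GS (6.07e-06). Both Stat5b probe sets passed this test: 1422102_a_at differed by -0.69 ± 0.11 in KO (limma adjusted p = 0.00105) and by -0.55 ± 0.11 in GS (0.00829). GS and KO share the WT arrays in these comparisons. Set against each other, GS minus KO was 0.01 for Stat5a (95% interval -0.27 to 0.28) and 0.03 for Stat5b (-0.22 to 0.28).

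Without T3 the main probe sets of both factors were already higher in KO and GS than in WT. Relative to WT, Stat5a was higher by 0.49 ± 0.09 in KO (limma adjusted p = 0.00284) and by 0.52 ± 0.09 in GS (0.00245). Stat5b was higher by 0.28 ± 0.08 in KO (limma adjusted p = 0.0477) and by 0.41 ± 0.08 in GS (0.00752). No other member was called, so 2 of 10 members were higher in each, where 3.76% of all genes were higher in KO and 1.97% in GS (6.87% and 2.95% called in either direction). The second probe sets were not called: for Stat5a 1450259_a_at gave 0.58 in KO (limma adjusted p = 0.0562) and 0.40 in GS (0.333), and for Stat5b 1422102_a_at gave 0.08 in KO (0.659) and 0.22 in GS (0.192). The Stat5b difference in KO fell outside the threshold without any 1 of its 6 arrays (0.23 to 0.31, adjusted p = 0.0677 to 0.205).

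In Y147F the PBS level of Stat5b exceeded that of WT by 0.45 ± 0.08 (limma adjusted p = 0.0421), the sole member called, where 0.0847% of all genes were. The value rested partly on Y147F PBS replicate 3, the array that lay apart, without which it was 0.32 (adjusted p = 0.106). It was also lost without Y147F PBS replicate 2 (0.51, 0.0847) or without WT PBS replicate 1, 2 or 3 (0.43 to 0.48, adjusted p = 0.0804 to 0.145). The other Stat5b probe set gave 0.03. Stat5a in Y147F differed from WT by 0.12 ± 0.09 without T3 (adjusted p = 0.605).

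No tested gene next to the Stat5b and Stat5a pair was called for T3 in WT, where 10.6% of all genes were. Among the 5 annotated genes on each side, 6 were tested, too few for their count to be read against that share. In WT the T3 differences were 0.06 for Rab5c, -0.05 for Hcrt, 0.05 for Ghdc, -0.26 for the third STAT gene of the cluster, Stat3, -0.25 for Cavin1 and 0.07 for Atp6v0a1. Their limma adjusted p ran from 0.347 for Stat3 to 0.803 for Ghdc, and none had an unadjusted p under 0.05. Stat3, which carries interleukin-6 signals, read 10.46, 10.84 and 10.73 with PBS and 10.59, 10.30 and 10.36 with T3 in WT, so its groups overlapped.

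Socs2, whose product targets the growth hormone receptor for degradation, had the largest change of the 10 genes. WT arrays read 10.01, 10.01 and 10.41 with PBS and 6.96, 6.30 and 6.05 with T3, a fall of -3.71 ± 0.42 (limma adjusted p = 2.35e-06). The lowest T3 value lay just above the array medians. Y147F arrays read 9.44, 8.97 and 10.28 with PBS and 6.16, 6.66 and 7.21 with T3 (-2.89 ± 0.42, limma adjusted p = 6.39e-05), again with a wide gap between groups. This fall was -2.53 without Y147F PBS replicate 3 and -3.15 without Y147F T3 replicate 3.

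In KO, Socs2 read 8.93, 10.19 and 10.00 with PBS and 8.54, 10.00 and 8.70 with T3, and the groups overlapped (-0.63 ± 0.42, limma adjusted p = 0.666). GS arrays read 8.91, 8.94 and 9.99 with PBS and 8.55, 9.24 and 9.16 with T3, also with overlap (-0.29 ± 0.42, limma adjusted p = 0.952). Every T3 array of KO and GS lay above every T3 array of WT and Y147F. The response differed from that in WT by 3.08 ± 0.59 in KO (limma adjusted p = 0.0039) and by 3.42 ± 0.59 in GS (0.00148). Without T3, GS lay below WT with no overlap, but the difference of -0.87 ± 0.42 was not called (adjusted p = 0.353).

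The 6 Socs2 probe sets differed in level and in their response to T3. The probe set 1418507_s_at gave -4.05 in WT and -3.0 in Y147F (both called) and differed from WT by 3.45 in KO and 3.76 in GS. The probe set 1442586_at passed the filter and moved little, by -0.24 in WT, within 5.39 to 6.34 over all arrays. Whether it reads the Socs2 transcript was not tested. In WT with T3, 1418507_s_at read 5.52 to 6.32, at much the same level. How far a floor limits the size of the Socs2 fall was not tested. The 3 untested probe sets stayed between 3.85 and 5.56. Averaging all 6 reduced the WT fall to -1.45, still called. Of the 10 annotated neighbours of Socs2 on chromosome 10, 3 were tested, too few for their count to be read against the 10.6% of all genes called. In WT, T3 moved Plxnc1 by -0.05, Cradd by -0.01 and Mrpl42 by 0.10, none called (limma adjusted p 0.464 to 0.965, none with an unadjusted p under 0.05).

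Cish encodes another STAT5-induced inhibitor that binds the activated receptor. In WT it read 8.20, 9.13 and 8.56 with PBS and 7.51, 7.16 and 7.34 with T3, and in Y147F 8.67, 8.86 and 8.47 with PBS and 7.23, 7.32 and 7.85 with T3. T3 arrays lay below all PBS arrays in both genotypes, by -1.29 ± 0.38 in WT (limma adjusted p = 0.0296) and -1.20 ± 0.38 in Y147F (0.0422). Both calls lay close enough to the threshold to be lost in some settings, while the fall kept its direction in all. Over the settings tried it lay between -1.5 and -1.04 in WT (limma adjusted p = 0.00849 to 0.144). In Y147F it lay between -1.39 and -1.08 (0.00449 to 0.151). The SE of 0.38 is drawn from all 8 groups. The WT call was lost without any 1 of WT T3 replicates 1, 2 and 3 and WT PBS replicates 2 and 3 (adjusted p = 0.0518 to 0.144). The Y147F call was lost without any 1 of Y147F PBS replicates 1, 2 and 3 and Y147F T3 replicates 1 and 2 (adjusted p = 0.0645 to 0.151), and was kept without Y147F T3 replicate 3 (-1.39, 0.0362).

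In KO, Cish read 8.35, 8.63 and 7.68 with PBS and 9.00, 9.98 and 8.10 with T3, the widest spread of its 8 groups. The difference of 0.81 ± 0.38 was not called (limma adjusted p = 0.47). GS arrays read 7.93, 8.64 and 9.43 with PBS and 8.84, 8.52 and 8.50 with T3 (-0.05 ± 0.38, limma adjusted p = 0.994). Relative to WT the response differed by 2.10 ± 0.53 in KO (limma adjusted p = 0.0316) and by 1.25 ± 0.53 in GS (0.296, not called). The KO difference was lost without any 1 of WT T3 replicates 2 and 3, WT PBS replicates 2 and 3, KO T3 replicates 1 and 2 and KO PBS replicate 3 (1.62 to 2.13, adjusted p = 0.0527 to 0.0964). Its lowest value, 1.62, came without KO T3 replicate 2.

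Socs3, the inhibitor that interleukin-6 and STAT3 chiefly induce, was not called in any contrast. In WT it read 8.44, 8.57 and 7.68 with PBS and 7.66, 7.36 and 7.54 with T3, without overlap. The difference of -0.71 ± 0.42 was not called (limma adjusted p = 0.34). Its SE is drawn from all 8 groups, whose SD was 0.48 and 0.15 in WT with PBS and T3 and up to 1.02 in Y147F with PBS. The largest value outside KO was 9.37, in Y147F PBS replicate 3, and KO T3 arrays read 9.34, 9.76 and 8.37. Its 3 probe sets gave -0.71, -0.55 and -0.43 in WT, none called. The x_at probe sets, the brightest among them, can include probes shared with other transcripts.

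**Figure D2:**
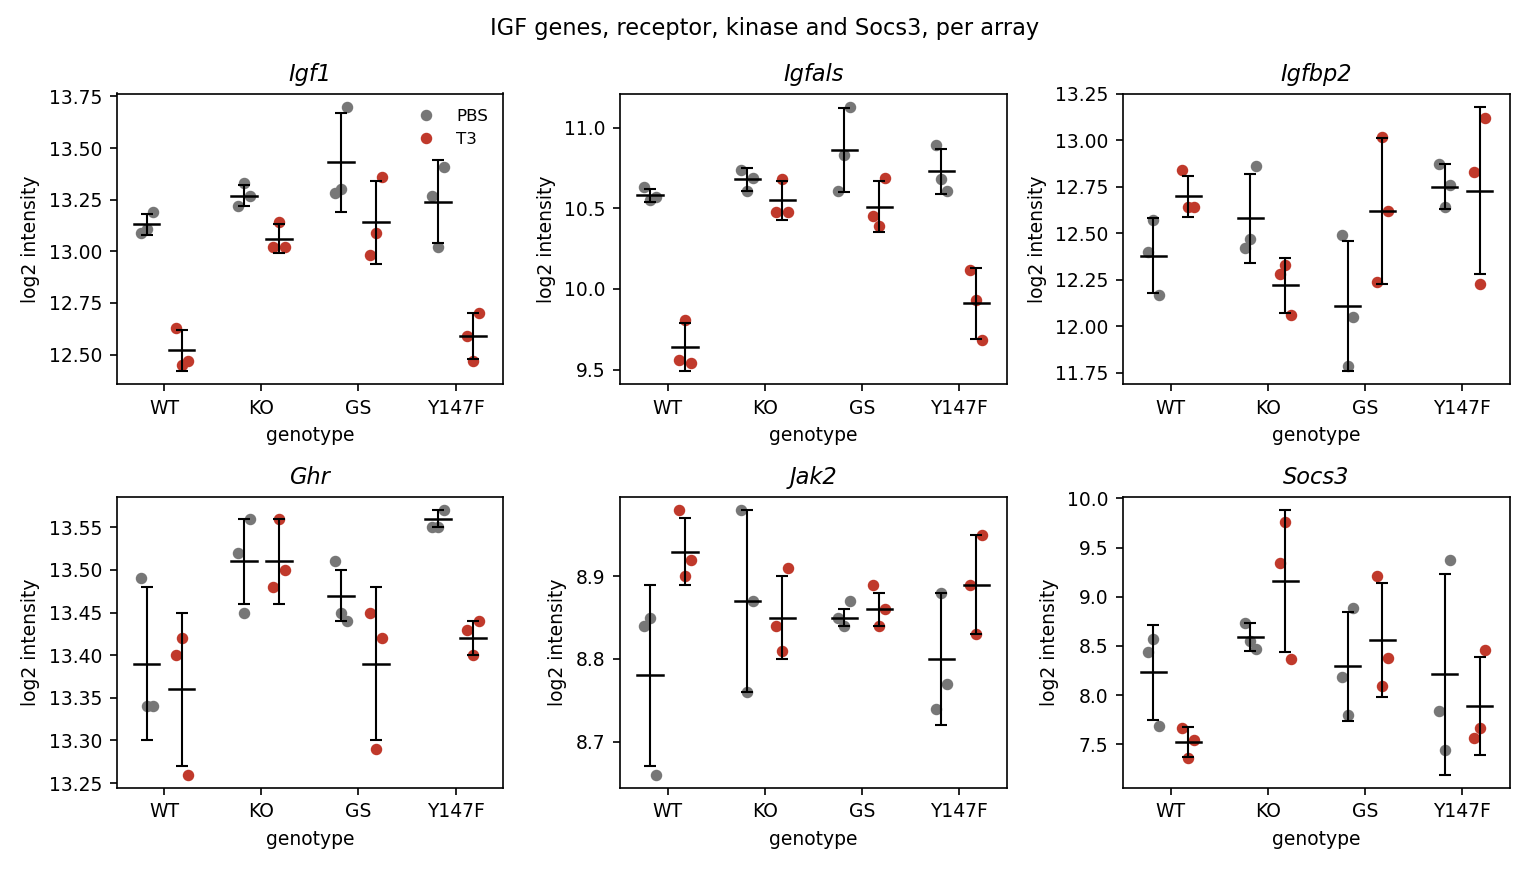
Log2 intensity of Igf1, Igfals, Igfbp2, Ghr, Jak2 and Socs3 on each array (dots), by genotype and treatment, with the mean and SD of 3 arrays (bars). The T3 arrays of WT and Y147F lie below their PBS arrays for Igf1 and Igfals, while Ghr stays within 13.26 to 13.57 and Jak2 within 8.66 to 8.98.

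The IGF genes that STAT5 induces fell with T3, by less than Socs2. Igf1 read 13.09, 13.11 and 13.19 in WT with PBS and 12.63, 12.45 and 12.47 with T3 (-0.61 ± 0.11, limma adjusted p = 0.000775). In Y147F it read 13.27, 13.02 and 13.41 with PBS and 12.59, 12.47 and 12.70 with T3 (-0.65 ± 0.11, limma adjusted p = 0.000516), or -0.56 and -0.70, both called, without Y147F PBS replicate 3 and without Y147F T3 replicate 3. There was no overlap in either genotype. Of the 4 Igf1 probe sets 3 were called in WT (-0.47 to -0.61), where 9.51% of all 24578 probe sets tested were, and 1452014_a_at gave -0.20 (limma adjusted p = 0.0685). The same 3 were called in Y147F, where 10.5% of all were, and 1434413_at was fitted there without 1 unreadable value, Y147F PBS replicate 2.

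In KO, Igf1 read 13.22, 13.33 and 13.27 with PBS and 13.02, 13.14 and 13.02 with T3, and in GS 13.28, 13.30 and 13.70 with PBS and 12.98, 13.09 and 13.36 with T3. The KO arrays did not overlap and the GS arrays did, and neither difference was called (-0.22 ± 0.11, limma adjusted p = 0.541, and -0.29 ± 0.11, 0.614). These responses were 35% of that in WT in KO and 46.7% in GS. The differences from WT, 0.40 ± 0.16 in KO (limma adjusted p = 0.257) and 0.33 ± 0.16 in GS (0.378), were not called either.

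Igfals read 10.63, 10.55 and 10.57 in WT with PBS and 9.56, 9.81 and 9.54 with T3, a fall of -0.94 ± 0.12 (limma adjusted p = 1.56e-05). Y147F arrays read 10.89, 10.68 and 10.61 with PBS and 10.12, 9.93 and 9.68 with T3 (-0.82 ± 0.12, limma adjusted p = 0.000111), or -0.87 and -0.70, both called, without Y147F PBS replicate 3 and without Y147F T3 replicate 3. In both genotypes all T3 arrays lay below all PBS arrays. KO arrays read 10.74, 10.61 and 10.69 with PBS and 10.48, 10.68 and 10.48 with T3, with overlap and no call (-0.14 ± 0.12, limma adjusted p = 0.789).

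In GS, Igfals read 10.61, 10.83 and 11.13 with PBS and 10.45, 10.39 and 10.69 with T3 (-0.35 ± 0.12, limma adjusted p = 0.557), and 1 T3 array reached the PBS range. The response differed from that in WT by 0.81 ± 0.17 in KO (limma adjusted p = 0.0101). In GS the difference of 0.60 ± 0.17 missed the threshold (adjusted p = 0.0765) and passed it without GS PBS replicate 3 (0.73, 0.0183). Without any other single array it stayed uncalled (0.47 to 0.68, limma adjusted p = 0.056 to 0.203). The difference between GS and KO was -0.21, with a 95% interval of -0.58 to 0.15.

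Igfbp2, a circulating IGF carrier that growth hormone lowers in liver, was not called in any contrast. WT arrays read 12.40, 12.57 and 12.17 with PBS and 12.84, 12.64 and 12.64 with T3 (0.32 ± 0.21, limma adjusted p = 0.383). In KO it read 12.42, 12.47 and 12.86 with PBS and 12.28, 12.33 and 12.06 with T3, and in GS 12.49, 11.79 and 12.05 with PBS and 12.24, 13.02 and 12.62 with T3. The arrays moved in opposite directions in these mutants, -0.36 ± 0.21 and 0.51 ± 0.21, and the difference of 0.87 ± 0.29 between them was not called (limma adjusted p = 0.73).

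Over all 24 arrays the main probe sets of the receptor and its kinase had the narrowest ranges of the 10 genes. Ghr lay among the brightest probe sets, at a median percentile of 99.3, and its main probe set stayed between 13.26 and 13.57 over all 24 arrays. T3 changed it by -0.03 in WT, 0.00 in KO, -0.08 in GS and -0.13 in Y147F, none called, and its other 2 probe sets moved by -0.09 and -0.12 in WT. The 95% interval of the WT difference was -0.16 to 0.09. Jak2 stayed between 8.66 and 8.98. In WT its T3 arrays (8.98, 8.90, 8.92) lay above the PBS arrays (8.84, 8.85, 8.66), by 0.15 ± 0.07 (limma adjusted p = 0.152), a difference of at most 0.29 by its 95% interval.

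**Figure D3:**
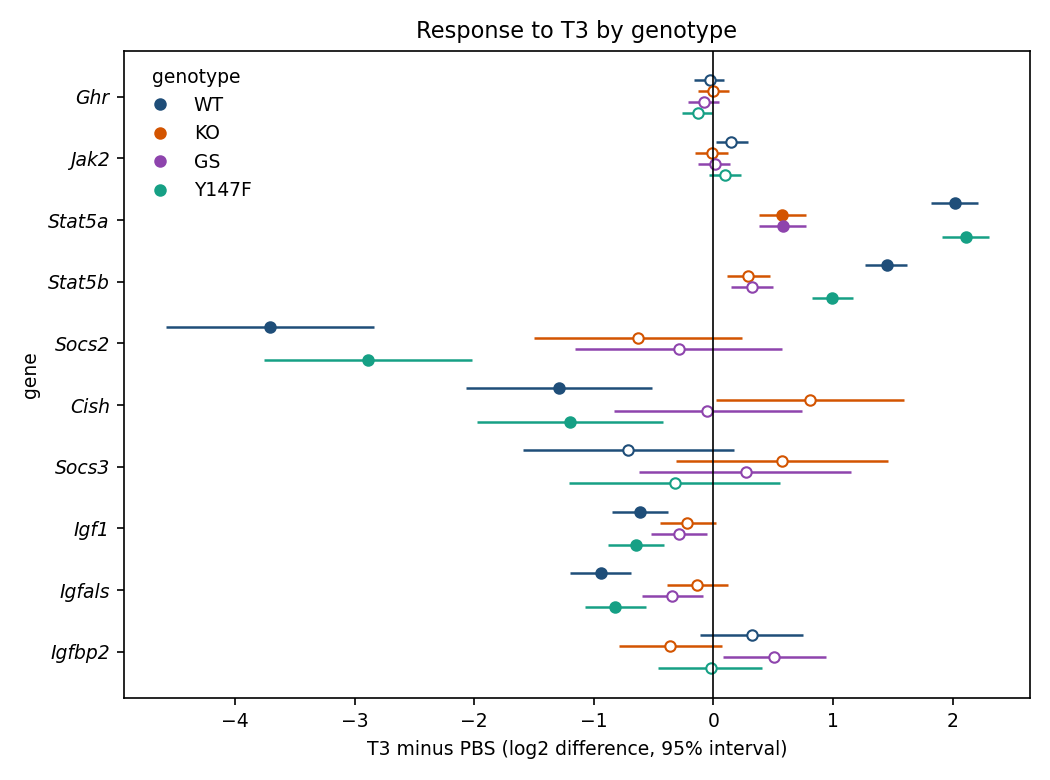
T3 minus PBS for the 10 genes in each genotype, as log2 differences with 95% intervals; filled points passed the test and open points did not. For Stat5a, Stat5b, Socs2, Igf1 and Igfals the KO and GS points lie nearer to 0 than those of WT and Y147F. For Stat5a they lie at 0.57 and 0.58 against 2.02 and 2.11. The Cish points of KO and GS also lie nearer to 0 (0.81 and -0.05 against -1.29 and -1.20), that of KO on the other side of it. Socs3 and Igfbp2 show no such order (Igfbp2 -0.36 in KO and 0.51 in GS).

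Over the whole axis, T3 in Y147F called the same number of members as in WT, 2 higher and 4 lower, where 5.52% of all genes rose, 6.09% fell and 11.6% were called in all. Without Y147F PBS replicate 3 the count was 5, Cish dropping out, and without Y147F T3 replicate 3 it was 6. The response differences between Y147F and WT gave no call among the members or among all genes (0% of 14162 in limma, with 756 genes at an unadjusted p under 0.05). The member with an unadjusted p under 0.05 was Stat5b, whose main probe set rose less in Y147F than in WT by -0.46 ± 0.12 (limma adjusted p = 0.738) and whose other probe set differed by 0.04. The Socs2 responses differed by 0.83 with a 95% interval of -0.40 to 2.06, too wide to show that they were alike.

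Against WT, the T3 response differed for 5 of the 10 members in KO, where 3.09% of all genes were called, and for 3 in GS, where 2.92% were. GS and KO responses gave no call against each other among the members or all genes (0% in limma, with 809 genes at an unadjusted p under 0.05, Igfbp2 among them). The PBS levels of GS and KO gave none among the members either, where 0.0847% of all genes were called and 1 member had an unadjusted limma p under 0.05.

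Other parts of the cytokine receptor pathway were read from 56 further genes, ligands and carriers, receptors, kinases and STAT factors, SOCS proteins and phosphatases, adaptors and STAT5 partners, of which 50 were tested. In WT, T3 raised 5 and lowered 4 of the 50 (median -0.04), where 5.73% of all genes rose and 4.9% fell (median -0.03). Whether these counts differ from the share over all genes was not tested. Those raised were the receptor Lifr (0.37 ± 0.11), the kinase Jak1 (0.42 ± 0.09), Stat6 (0.47 ± 0.07), the glucocorticoid receptor Nr3c1, which binds DNA together with STAT5 (0.72 ± 0.10), and Cebpb (1.19 ± 0.13). Those lowered were the phosphatase Ptpn2 (-0.30 ± 0.09), the insulin and IGF receptor adaptor Irs1 (-1.22 ± 0.13) and the hepatocyte factors Onecut1 (-1.5 ± 0.41) and Hnf4a (-0.37 ± 0.07).

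In Y147F, where 5.52% of all genes rose and 6.09% fell, 4 of the 50 were raised (Jak1 0.34, Stat6 0.39, Nr3c1 0.42, Cebpb 0.74) and 4 were lowered (Irs1 -1.31, Onecut1 -1.72, Hnf4a -0.24 and the STAT inhibitor Pias1 -0.26). In KO and GS limma called none of the 50, with 7 and 4 at an unadjusted p under 0.05. Irs1 read 10.44, 10.80 and 10.17 in WT with PBS and 9.29, 9.16 and 9.32 with T3. The KO response of Irs1 was smaller by 0.71 and the GS response by 0.87, both called. Cebpb responses were lower than in WT by -1.30 in each mutant, also called.

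Without T3 the leptin receptor gene Lepr had the largest called difference of the 50. It read 7.97, 7.32 and 7.0 in WT, 9.20, 10.05 and 9.62 in KO and 10.01, 8.89 and 9.31 in GS. No mutant array reached down to the WT range, and Lepr was higher by 2.19 ± 0.41 in KO (limma adjusted p = 0.00249) and by 1.97 ± 0.41 in GS (0.0088). In Y147F with PBS it read 8.37, 6.89 and 8.26. Cebpb (0.54) and Igfbp4 (0.19) were also higher in KO, and no other of the 50 was called in KO or in GS.

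Genes that follow the growth hormone pattern in mouse liver were read from 2 lists, and Acot3 and Fmo2 on them were already known to fall in these arrays. T3 in WT raised 3 of 10 male-biased genes (Cyp2u1, 1.49, Nudt7, 1.97, and Elovl3, 1.10) and, of 7 female-biased genes, raised 1 (Cyp17a1, 2.28) and lowered 2 (Acot3, -3.43, and Fmo2, -1.98), where 5.73% of all genes rose and 4.9% fell. Without T3, KO exceeded WT in 6 of the 10 male-biased genes (0.33 to 2.52, Nudt7, Cyp2d9, Cyp2u1 and Cyp7b1 among them) and lay below WT in 3 of the 7 female-biased ones (Atp6v0d2, Fmo2 and Acot3), where 6.87% of all genes were called in either direction. In GS 2 male-biased genes, Cyp2u1 (0.69) and Nudt7 (1.04), were called higher where 1.97% of all genes were, and no female-biased gene was called (2 at an unadjusted limma p under 0.05). Of 14 acute phase genes T3 in WT raised 2 and lowered 2, and the mean of the list lay at 11.30 to 11.69 in WT arrays of both treatments. Their part in the Socs3 and Cish values was not tested.

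By the pattern of the 8 group means, the genes most like Stat5a among 14161 others were the T3-induced deiodinase gene Dio1 (Pearson r = 0.997), Psmf1 (0.99) and Foxn3 (0.99). For Stat5b they were Hivep2 (0.993), Snx21 (0.992) and N4bp2 (0.988), and for Socs2 Nedd4l (0.989), Wwc1 (0.987) and Siah2 (0.987). Cish was most like Hhex (0.989), Mapk4 (0.986) and Lratd2 (0.979). Igfals was most like Trim25 (0.986), the member Igf1 (0.984) and Nags (0.983). The sizes differed widely: Dio1 rose by 6.63 in WT and 1.82 in KO, and Psmf1 by 0.34 and 0.09. These r values describe 8 means over the same arrays.

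Members were also compared within groups, as the deviation of each array from its group mean, for all 45 pairs of the 10 genes over 24 arrays. Socs2 and Igf1 deviated together (Pearson r = 0.74, permutation p = 0.0002, Benjamini-Hochberg adjusted 0.009 over the 45 pairs; Spearman rho = 0.73, permutation p = 0.00065, adjusted 0.0292), the permutations being drawn within groups. Without the 2 arrays farthest in Socs2 r was 0.73, and in the 18 first-submitted arrays, which leave out the Y147F arrays that lay apart, it was 0.72. No other pair passed the adjustment. Stat5a and Stat5b gave -0.15 (permutation p = 0.506), Socs2 and Cish 0.43 (0.152), and Cish and Socs3 0.47 (0.0569, adjusted 0.702). In GS PBS replicate 3, for example, Socs2 lay 0.71 and Igf1 0.27 above the group mean, and in Y147F PBS replicate 2 they lay at -0.59 and -0.21. Only main probe sets were compared, and the other Igf1 probe sets were not tested this way. They did not all follow Socs2. In KO T3, Socs2 was highest in replicate 2 (10.00). There Igf1 read 11.50, 11.43 and 11.43 by 1419519_at, 12.95, 12.88 and 12.88 by 1452014_a_at, and 12.54, 12.54 and 12.44 by 1434413_at. Whether the pair reflects a wider difference between arrays was not tested.

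**Figure D4:**
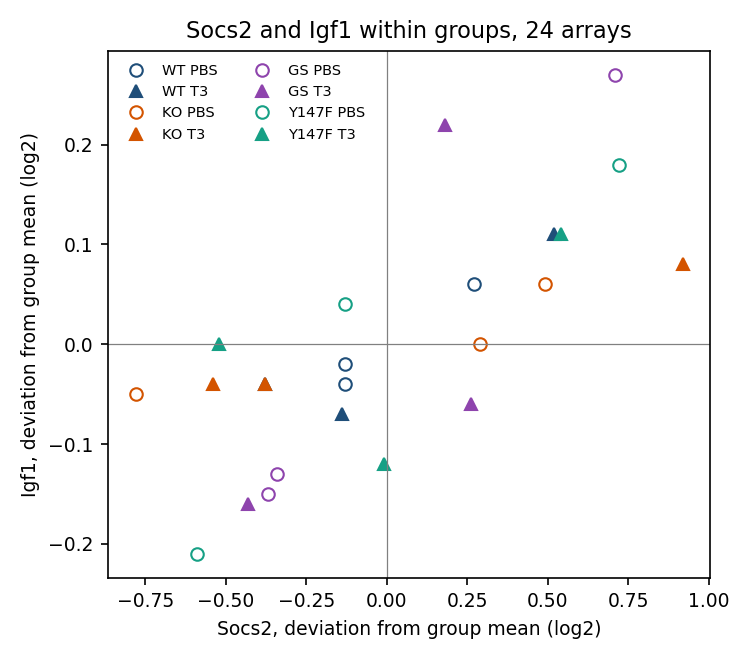
Deviation of Igf1 (vertical) against that of Socs2 (horizontal) from the mean of the group, in log2 units, for 24 arrays; colours mark genotypes, open circles PBS and filled triangles T3. The points rise from lower left (-0.59 and -0.21 in Y147F PBS replicate 2) to upper right (0.71 and 0.27 in GS PBS replicate 3), with r = 0.74. Each gene is shown by its main probe set only.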

How the data were processed

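Probe set summaries come from RMA, per the submitters' processing notes, and 18 of the deposited columns hold log2 intensities. The version and whether all 24 arrays went through 1 run are not stated. The 6 deposited Y147F columns lacked decimal marks. Marks were restored so that each log2 value lay from 3 to 16, and 775 cells (0.286%) that may be spreadsheet day numbers were set missing.

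Each gene was represented by its probe set with 1 symbol and the highest mean. Of 18194 genes, 14162 reached the 40th percentile of an array in at least 3 arrays. One limma 3.58.1 model in R 4.3.3, with 8 group means and no covariate, gave 12 contrasts, tested on both sides and adjusted over all genes. Probe sets were also fitted separately (24578 tested). Steps were tested on simulated data.

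The members, lists and tests were chosen with earlier results of these data known; the facing hexamers and the within-group correlations were chosen after the values were seen. Named were all members, up to 4 genes of a list with the smallest p in a contrast (with all those called where 5 or fewer), 5 neighbours on each side of Stat5b and Stat5a and of Socs2, and the 3 genes most like 5 of the members. The labels do not say whether arrays are separate animals, so p-values measure the spread between arrays, whose number limits the precision. The settings tried were other normalisations, filters, probe set summaries and models, and leaving out each array.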

Additional observations from a re-analysis of the deposited data

Results flagged for a closer look

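The T3 response of 5 members differed between KO and WT in a test of the difference itself, with n = 3 arrays in each of the 4 groups compared. By limma the differences were -1.45 for Stat5a, -1.16 for Stat5b, 3.08 for Socs2, 2.10 for Cish and 0.81 for Igfals. Between GS and WT the response differed for Stat5a (-1.44), Stat5b (-1.12) and Socs2 (3.42). The WT arrays are shared by both sets of values. The Cish difference was the least stable of these, at an adjusted p of 0.0316 and up to 0.0964 when single arrays were left out.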

How the results depend on the processing

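Over 29 results for single members and the settings that apply to each, 456 of 511 values kept their direction and their side of the threshold, 51 lost the call, 4 gained it and none changed direction. The number of members called for T3 in KO (1) was 0 with probe sets averaged per gene and 0 with only the arrays compared. That for GS (1) was 0 with only the arrays compared, 2 with the first-submitted arrays only, and 0 to 1 when single arrays were left out. For PBS levels of KO against WT, 2 became 1 with median centring, no filter on low values, averaged probe sets, only the arrays compared, a covariate for title numbers over 100000, and without any 1 of the 6 arrays. For PBS levels of Y147F against WT, 1 became 0 with quantile normalisation, no filter, averaged probe sets, only the arrays compared and the title covariate, and was 0 to 1 when single arrays were left out. The causes were not tested. The calls lost most often were Stat5b without T3 in KO (11 of 16 settings) and in Y147F (10 of 15), then Cish, for T3 in WT (7 of 16), in Y147F (7 of 15) and in KO against WT (10 of 22). Igfals in GS against WT gained a call with array weights (adjusted p = 0.0393) and with the title covariate (0.0297). No paired analysis was possible because every title number differs and none is shared between groups. Probe sets that stayed low and moved little, such as 4 of the 6 for Socs2, dilute means over probe sets.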
